A study of Rattus norvegicus with 11 samples.

Results

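The genes described here are 10 genes of red cell development other than globins, namely Alas2, Fech, Slc25a37, Ahsp, Slc4a1, Epb42, Bpgm, Tmcc2, Gata1 and Klf1. They were taken by symbol from a table of 32623 genes, in which each of the 10 symbols stood for 1 gene. Peripheral white blood cells (WBCs) of Wistar rats were sequenced in 11 samples of 3 groups. The 4 Nampt++ and 4 Nampt+ samples came from the same 4 rats with collagen-induced arthritis (CIA), a model in which collagen II in incomplete Freund's adjuvant is injected and a boost follows on day 7, and the 3 samples of normal healthy controls came from 3 other rats. In each CIA rat a blood sample with raised Nampt mRNA (Nampt++, taken on about day 8) was followed by a sample in which Nampt mRNA was back at the level of healthy controls (Nampt+, about day 14). Status and sampling day therefore cannot be told apart, and the labels name no other agent or allele in any group. The rats were 7 weeks old at the start. Blood cells of all groups were kept after the red cells had been lysed in buffer.

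Red cell precursors fill themselves with haemoglobin, eject the nucleus and leave the marrow as reticulocytes, which carry the remaining mRNA into the blood until they mature. Gata1 and Klf1 encode transcription factors that drive this programme, and the other genes supply haem, haemoglobin folding, the membrane, a glycolytic side path and late maturation. Haemoglobin mRNA is the main message of the same cells, and the share of counts on haemoglobin genes is given beside the values.

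Samples held between 65340027 and 85819418 counts. The 11 haemoglobin genes of the table took 30.1%, 30.9% and 16.2% of all counts in the controls, 6.84%, 37.3%, 20.2% and 7.80% at Nampt++ status in rats 1, 2, 3 and 4, and 25.9%, 42.8%, 18.4% and 14.8% at Nampt+ status in the same order. Rat 2 thus had the highest share at both statuses, and rats 1 and 4 the lowest shares at Nampt++ status. The mean share was 25.7% ± 8.23 (SD, n = 3) in controls, 18.0% ± 14.2 (SD, n = 4) in Nampt++ and 25.5% ± 12.4 (SD, n = 4) in Nampt+ samples. By two-sided exact permutation over samples none of the differences passed the threshold of 0.05 (p = 0.457 for Nampt+ against Nampt++, p = 0.371 for Nampt++ against controls, p = 1 for Nampt+ against controls), and the smallest p these groups allow is 0.0286. Nampt itself, by which the statuses were assigned, ranged from 10.1 to 46.5 FPKM in Nampt++, from 11.4 to 36.9 FPKM in Nampt+ and from 13.5 to 32.9 FPKM in control samples, so the 3 groups overlapped for it. Ptprc, the pan-leukocyte marker CD45, had 122 to 280 FPKM, whereas the 6 retina markers looked for (the deposited extraction text speaks of retinas) summed to at most 0.293 FPKM in any sample. FPKM, the reads of a gene scaled by its length and by the reads of the sample, is used below for levels. In bulk RNA fewer cells of a type and less RNA per cell cannot be told apart.

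The sequence before the gene start was read for 7 of the 10 genes from RefSeq windows on GRCr8, 250 bases upstream. The letters AGATAA or TGATAA, the forms ending in A of the core that Gata1 binds, were searched on both strands. CACACCC or CCACCC, the box that Klf1 binds, were searched likewise, and none of the 4 contains another. Forms of the GATA core that end in G, such as the AGATAG in the Epb42 window, were not searched. A GATA match stood in the windows of Alas2, Fech and Klf1 (3 of 7; 16.9% of 33469 windows of all genes hold one), and a CACCC match in those of Gata1 and Klf1 (2 of 7; 30.2% of all windows). The windows of Alas2, Bpgm and Gata1 lie inside the gene span that RefSeq gives, 4800, 468 and 8346 bases from its start, so only those of Fech, Epb42, Tmcc2 and Klf1 touch the annotated start. A window is shown for a gene with both motifs, a gene with 1 and a gene with none, with the matched letters in capitals as they read on the strand of the gene (TTATCA is TGATAA and TTATCT is AGATAA on the other strand). They lie at chr19:40158652-40158901 (Klf1), chr18:60248526-60248775 (Fech) and chr13:46383863-46384112 (Tmcc2), all on the minus strand of GRCr8.
Klf1: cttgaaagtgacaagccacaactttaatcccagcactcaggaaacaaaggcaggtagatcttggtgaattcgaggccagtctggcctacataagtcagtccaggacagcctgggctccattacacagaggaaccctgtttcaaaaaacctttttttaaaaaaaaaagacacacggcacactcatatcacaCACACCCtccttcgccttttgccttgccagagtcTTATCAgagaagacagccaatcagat
Fech: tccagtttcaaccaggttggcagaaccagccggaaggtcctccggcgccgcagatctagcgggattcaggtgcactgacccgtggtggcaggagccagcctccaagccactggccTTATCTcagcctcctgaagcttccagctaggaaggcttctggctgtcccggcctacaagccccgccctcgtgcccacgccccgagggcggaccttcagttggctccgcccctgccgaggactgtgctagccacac
Tmcc2: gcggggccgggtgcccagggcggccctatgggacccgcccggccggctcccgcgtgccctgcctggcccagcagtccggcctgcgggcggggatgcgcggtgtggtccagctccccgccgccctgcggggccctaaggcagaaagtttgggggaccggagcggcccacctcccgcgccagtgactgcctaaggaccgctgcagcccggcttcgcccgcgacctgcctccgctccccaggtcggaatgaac
In the Klf1 window the CACCC match ends 54 bases and the GATA match 21 bases before the start, and in the Fech window the GATA match ends 130 bases before it. These matches describe letters only, and binding was not measured.

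Ordered by mean FPKM over the 11 samples, the genes ran from Alas2 (748 ± 418, SD) through Bpgm (283 ± 165), Ahsp (151 ± 133), Tmcc2 (143 ± 171), Slc4a1 (51.8 ± 46.3), Fech (34.7 ± 22.9), Slc25a37 (19.0 ± 6.20), Klf1 (13.4 ± 9.24) and Epb42 (7.67 ± 5.09) to Gata1 (4.52 ± 2.39). Alas2 was the highest of the 10 in each of the 11 samples, Bpgm exceeded Ahsp in 10 and Klf1 exceeded Epb42 in 11. The neighbours Ahsp and Tmcc2, Tmcc2 and Slc4a1, Slc4a1 and Fech, Fech and Slc25a37, and Slc25a37 and Klf1 kept their order in 7 samples each and did not differ beyond their spread. Tmcc2 took any place from the second to the seventh. The SD was over 50% of the mean for every gene but Slc25a37 (32.6%), and it was largest relative to the mean for Tmcc2 (119.6%).

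**Figure D1:**
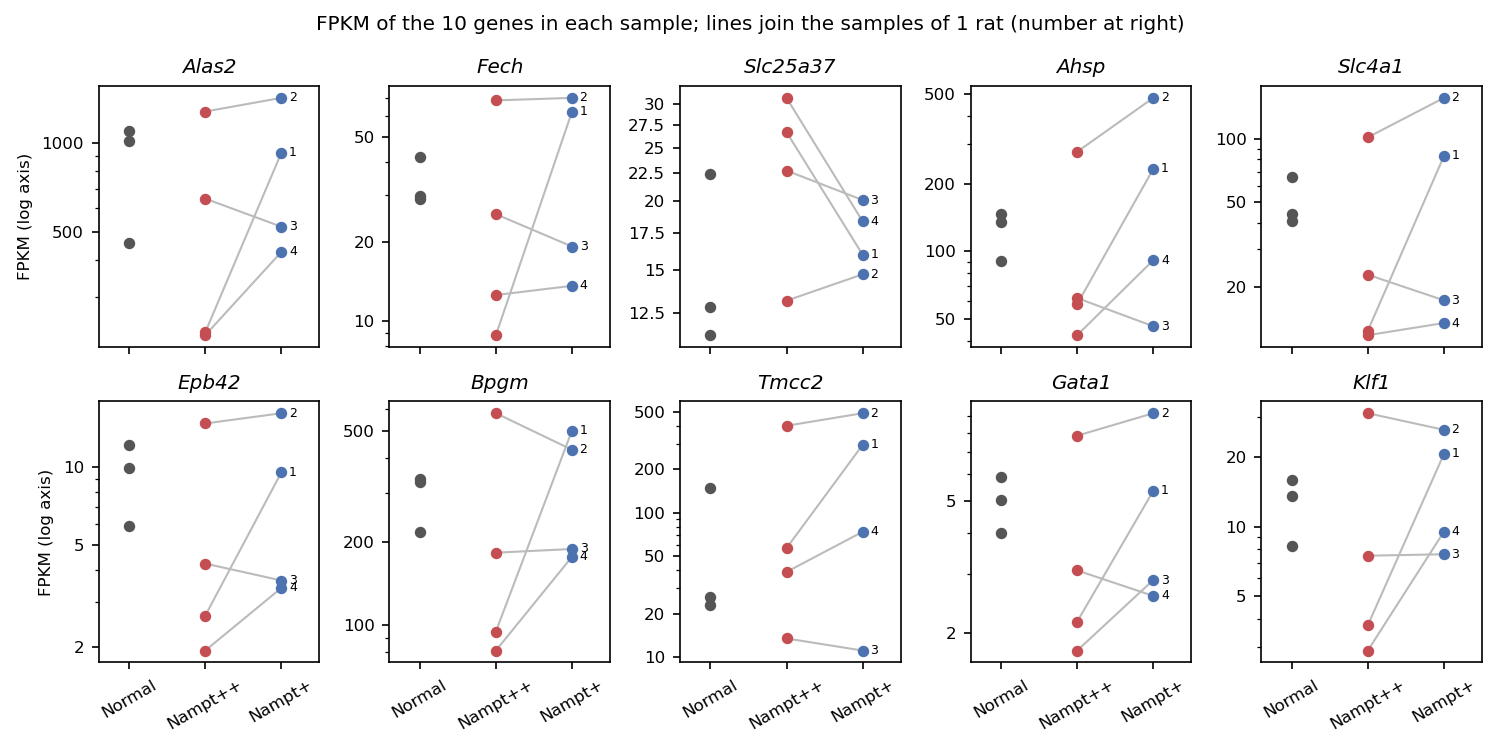
FPKM (log axis) of each of the 10 genes in each sample, with 1 point per sample for 3 Normal, 4 Nampt++ and 4 Nampt+ samples, and grey lines that join the samples of 1 CIA rat (its number at the right). The groups overlap for every gene, rat 2 is high at both statuses for all genes but Slc25a37, and rat 1 moves farthest between the statuses for most of them.

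Of the transcription factors, Gata1, which switches on most erythroid genes and is also used by megakaryocytes, mast cells and eosinophils, was the lowest of the 10 in mean level. Its FPKM was 5.88, 5.02 and 4.0 in the controls, 2.16, 7.84, 1.77 and 3.08 at Nampt++ status in rats 1, 2, 3 and 4, and 5.35, 9.15, 2.89 and 2.59 at Nampt+ status, the order used throughout. The 2 highest values were both from rat 2 and the lowest from rat 3 at Nampt++ status. Gata1 rested on 196 to 839 counts per sample, the thinnest evidence among the 10 genes. Klf1, which activates the beta-globin gene, had 15.9, 13.6 and 8.26 FPKM in the controls, 3.75, 31.1, 7.49 and 2.91 in Nampt++ samples and 20.7, 26.3, 7.60 and 9.53 in Nampt+ samples. The Nampt++ sample of rat 2 stood above all others, and the other Nampt++ samples stood below every control and every Nampt+ sample. In group means Klf1 had 12.6 ± 3.94 (SD, n = 3) FPKM in controls, 11.3 ± 13.3 (SD, n = 4) in Nampt++ and 16.0 ± 8.97 (SD, n = 4) in Nampt+ samples.

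Among the genes of haem synthesis, Alas2, the erythroid enzyme of the first and rate-limiting step, had 1011, 1095 and 458 FPKM in the controls, 228, 1277, 647 and 223 in the Nampt++ samples and 925, 1421, 520 and 427 in the Nampt+ samples. Its group means were 855 ± 346 (SD, n = 3), 594 ± 497 (SD, n = 4) and 823 ± 453 (SD, n = 4). The 3 highest samples were both of rat 2 and the second control, and the 2 lowest were the Nampt++ samples of rats 1 and 4. Fech, ferrochelatase, which places iron into the finished ring, followed much the same order at a lower level, with 29.8, 41.9 and 29.1 FPKM in the controls, 8.82, 68.7, 25.4 and 12.5 in the Nampt++ samples and 62.3, 70.3, 19.1 and 13.6 in the Nampt+ samples. Controls lay inside the range of either CIA group. Slc25a37, mitoferrin, which carries iron into the mitochondrion of red cell precursors, differed from the other 9. It had 12.8, 22.4 and 11.4 FPKM in the controls, 26.7, 13.2, 22.7 and 30.8 in the Nampt++ samples, and 16.0, 14.7, 20.1 and 18.4 in the Nampt+ samples. Here the Nampt++ samples of rats 1 and 4 were the highest of all and that of rat 2 was among the lowest, the opposite order to Alas2.

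Ahsp encodes the chaperone that holds free alpha-globin. Its FPKM was 147, 135 and 90.7 in the controls, 58.3, 277, 62.0 and 42.4 in the Nampt++ samples and 233, 481, 46.5 and 91.4 in the Nampt+ samples. Both samples of rat 2 were above every control, and 3 of the 4 Nampt++ samples were below every control. Ahsp averaged 124 ± 29.7 (SD, n = 3), 110 ± 112 (SD, n = 4) and 213 ± 195 (SD, n = 4) FPKM in controls, Nampt++ and Nampt+ samples.

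For the membrane, Slc4a1, the anion exchanger band 3 to which the skeleton is anchored, had 44.2, 66.0 and 41.0 FPKM in the controls, 12.4, 102, 22.8 and 11.8 in the Nampt++ samples and 83.0, 156, 17.2 and 13.4 in the Nampt+ samples. Rats 1 and 2 at Nampt+ status and rat 2 at Nampt++ status were above all controls, and the remaining CIA samples were below all of them. Epb42, protein 4.2, which links band 3 to ankyrin, had 12.2, 9.95 and 5.92 FPKM in the controls, 2.65, 14.8, 4.22 and 1.94 in the Nampt++ samples and 9.54, 16.2, 3.63 and 3.40 in the Nampt+ samples. Its samples kept much the same order as those of Slc4a1, with rat 2 highest and the Nampt++ samples of rats 1 and 4 lowest.

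Bpgm makes 2,3-bisphosphoglycerate, which lowers the oxygen affinity of haemoglobin. It had 337, 327 and 217 FPKM in the controls, 95.1, 580, 183 and 81.2 in the Nampt++ samples and 503, 429, 188 and 177 in the Nampt+ samples. Rat 2 was highest at Nampt++ status, whereas rat 1 was highest at Nampt+ status. Tmcc2, a transmembrane coiled-coil protein whose mRNA is abundant in reticulocytes, had 22.9, 26.2 and 148 FPKM in the controls, 56.9, 399, 13.5 and 38.9 in the Nampt++ samples and 294, 487, 11.1 and 73.7 in the Nampt+ samples. The third control was high for Tmcc2 although it was the lowest control for Alas2, and rat 3 was the lowest CIA rat at both statuses. Between the lowest and the highest of the 11 samples Tmcc2 differed by 43.7-fold, against 6.38-fold for Alas2.

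In the comparison of Nampt+ with Nampt++ samples, which asks what changed in the same rats as Nampt mRNA returned to its basal level, 9 of the 10 genes lay higher in Nampt+ samples and Slc25a37 lay lower, but none passed the test. A gene was called by the criterion of the study, a ratio of mean FPKM over 2 or under 0.5 with an unadjusted p under 0.05, here from edgeR's quasi-likelihood test. By this rule 0 of the 10 genes were called, where 0.642% of 11219 genes tested were, and 0 of the 10 had groups that did not overlap, where 0.41% of all genes did. The log2 fold changes were 1.31 ± 1.01 (SE) for Ahsp, 1.22 ± 1.13 for Slc4a1, 1.10 ± 1.36 for Tmcc2, 0.76 ± 0.91 for Epb42, 0.75 ± 0.90 for Fech, 0.72 ± 0.75 for Gata1, 0.71 ± 0.80 for Alas2, 0.70 ± 0.92 for Klf1, 0.60 ± 0.80 for Bpgm and -0.29 ± 0.23 for Slc25a37. The edgeR unadjusted p ran from 0.227 (Ahsp) to 0.472 (Bpgm), and the Benjamini-Hochberg adjusted p was 1.00 for each of the 10. The median of the 10 was 0.74 against -0.0002 over all genes tested, of which 50% lay above 0 (50.4% and 49.3% in the comparisons of Nampt++ and Nampt+ samples with controls). In this unpaired fit, leaving out the Nampt+ sample of rat 2 alone, with the Nampt++ sample of that rat kept, changed the sign of the log2 fold change for 8 of the 10 genes, and Alas2 went from 0.71 to -0.17.

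The Nampt++ sample of rat 2 decided the size of the same difference. Without that sample 5 genes were called higher in Nampt+ samples, where 0.719% of 11258 genes were, with log2 fold changes of 3.17 ± 1.33 (SE) for Tmcc2, 2.65 ± 1.12 for Slc4a1, 2.51 ± 1.00 for Ahsp, 2.13 ± 0.76 for Klf1 and 1.73 ± 0.66 for Bpgm. Their edgeR unadjusted p ran from 0.0232 to 0.0459 and the adjusted p was 0.918 for each. Without rat 2 at both statuses 0 of the 10 were called, where 2.91% of 11408 genes were. The log2 fold change was then above 0 for 9 of the 10 genes, as with all rats, and Slc25a37 lay at -0.65 ± 0.13 (SE; edgeR unadjusted p = 0.00201, adjusted p = 0.344), short of the ratio a call needs. The haemoglobin share of the sample left out was 37.3%, the highest of the Nampt++ group.

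**Figure D2:**
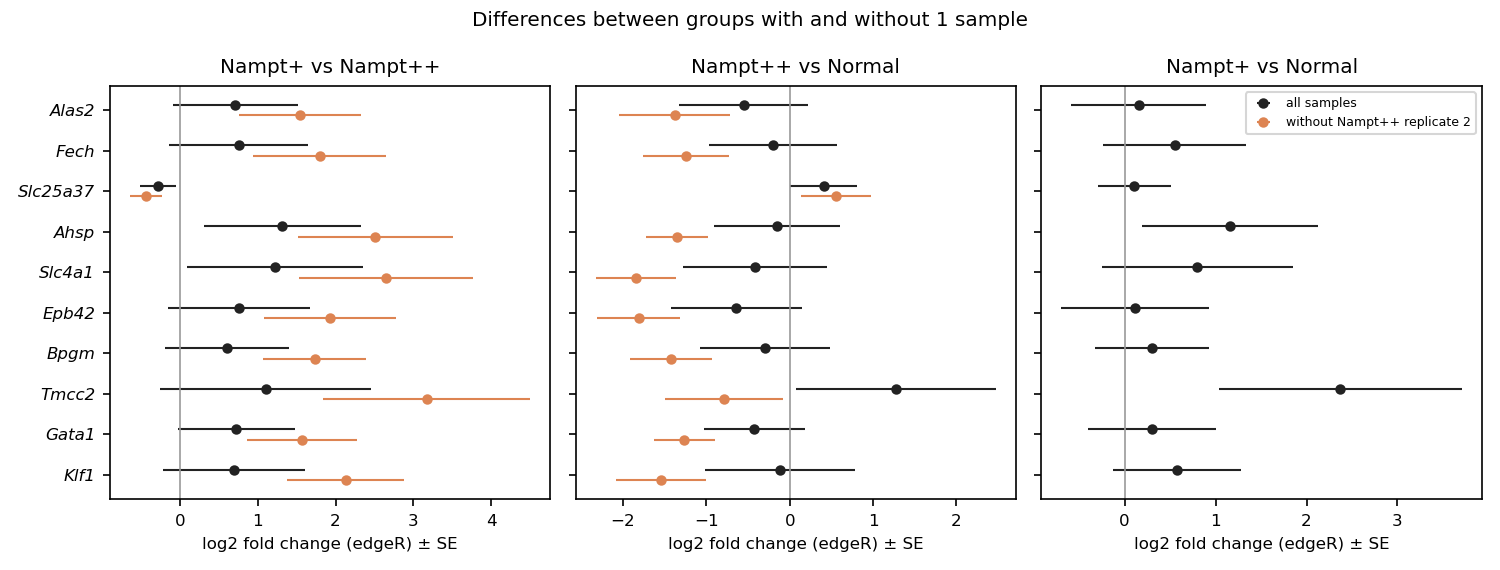
Log2 fold change from edgeR ± SE of the 10 genes in each of the 3 comparisons, with all samples (black) and, where that sample takes part, without the Nampt++ sample of rat 2 (orange). With all samples most bars of ±1 SE cross 0, and without that sample 9 genes lie farther above 0 in Nampt+ against Nampt++ and 9 lie below 0 in Nampt++ against Normal.

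Against controls, Nampt++ samples had 8 of the 10 genes lower, none past the test. None of the 10 was called (0.686% of 11219 genes tested were) and none had groups without overlap (1.1% of all genes did). The log2 fold changes were -0.64 ± 0.79 (SE) for Epb42, -0.55 ± 0.78 for Alas2, -0.42 ± 0.61 for Gata1, -0.42 ± 0.87 for Slc4a1, -0.30 ± 0.78 for Bpgm, -0.20 ± 0.76 for Fech, -0.15 ± 0.75 for Ahsp and -0.12 ± 0.89 for Klf1, with Slc25a37 at 0.41 ± 0.40 and Tmcc2 at 1.27 ± 1.20. The edgeR adjusted p was 1.00 for each of the 10. The median was -0.25 against 0.002 over all genes tested. Without the Nampt++ sample of rat 2, 7 genes were called lower, where 1.02% of 11273 genes were, namely Slc4a1 (-1.84 ± 0.48, SE), Epb42 (-1.81 ± 0.50), Klf1 (-1.55 ± 0.54), Bpgm (-1.43 ± 0.49), Ahsp (-1.35 ± 0.38), Gata1 (-1.26 ± 0.36) and Fech (-1.24 ± 0.52), with edgeR adjusted p = 0.902 for each. Tmcc2 then lay at -0.79, below 0. The 3 samples left had haemoglobin shares of 6.84%, 20.2% and 7.80%, and the controls of 16.2% to 30.9%.

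Nampt+ samples and controls gave 0 of the 10 called (0.497% of 11269 genes tested were) and 0 without overlap (0.444% of all genes). Here the 10 log2 fold changes were above 0, from 0.11 ± 0.40 (SE) for Slc25a37 and 0.12 ± 0.81 for Epb42 to 1.16 ± 0.97 for Ahsp and 2.37 ± 1.34 for Tmcc2, with a median of 0.42 against -0.003 over all genes tested. On the scale of log2(FPKM + 1), limma put 5 of them below 0, with Alas2 at -0.12 and Epb42 at -0.36. The ratio of mean FPKM, used for calls, was also below 1 for Alas2 (0.96) and Epb42 (0.87), and above 1 for the others. The reason for these differences in sign was not tested. The edgeR adjusted p was 1.00 for each of the 10, and the lowest unadjusted p was 0.114, for Tmcc2. Without the Nampt+ sample of rat 3, Tmcc2 was called higher, as 0.205% of 11194 genes were (log2 fold change 2.75 ± 1.02, SE; edgeR unadjusted p = 0.0317, adjusted p = 1.00). The 3 comparisons share samples, so their values are not independent of each other. When log2(FPKM + 1) was permuted over samples (exact, two-sided), 0 of the 10 genes passed in any of the 3, the lowest p being 0.171 (adjusted p = 0.771 over 30 tests) for Slc25a37 in Nampt++ samples against controls, which lay 0.55 higher in mean.

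Within rats, rat 1 carried most of the difference between the statuses. From Nampt++ to Nampt+, 9 of the 10 genes were higher and 1 lower in rat 1, with a median log2 ratio of FPKM of 2.20. Rat 2 had 8 higher and 2 lower (median 0.16), rat 3 had 3 higher and 7 lower (median -0.25), and rat 4 had 8 higher and 2 lower (median 0.86). Each of the 9 genes other than Slc25a37 was higher in 3 of 4 rats, and Slc25a37 was lower in 3 of 4. In rat 1 Fech was 7.07-fold, Slc4a1 6.71-fold, Klf1 5.53-fold, Bpgm 5.29-fold, Tmcc2 5.18-fold and Alas2 4.06-fold higher at Nampt+ status, while the haemoglobin share went from 6.84% to 25.9%. In rat 3 Ahsp went from 62.0 to 46.5 FPKM while the haemoglobin share went from 20.2% to 18.4%. The mean within-rat difference on the log2(FPKM + 1) scale ran from -0.36 ± 0.43 (SD, n = 4) for Slc25a37 to 0.86 ± 0.99 (SD, n = 4) for Ahsp, and two-sided exact sign-flip permutation gave p = 0.25 to p = 0.625, where 4 rats allow no p under 0.125.

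Most of the genes followed the haemoglobin share. Each rat was entered once, with the controls and the Nampt++ samples in one set of 7 and the controls and the Nampt+ samples in another, and log2(FPKM + 1) was correlated with the log2 ratio of haemoglobin counts to all other counts. The 2 sets share the 3 controls. For Alas2 Pearson's r was 0.996 in the first set (permutation p = 0.000595, adjusted p = 0.00595 over 20 correlations) and 0.984 in the second (permutation p = 0.000198, the smallest 7 samples allow, adjusted p = 0.00397), with Spearman's rho of 0.964 (permutation p = 0.00278, adjusted p = 0.0185) and 1 (permutation p = 0.000397, adjusted p = 0.00794). Without the 2 samples farthest from the median its r was 0.992 in either set. Of the other genes, Fech, Ahsp, Slc4a1, Epb42, Bpgm and Klf1 passed in both sets by Pearson's r (0.889 to 0.969 in the first and 0.814 to 0.933 in the second, permutation adjusted p at most 0.0423). By Spearman's rho Ahsp, Bpgm and Klf1 did not pass in the second set (rho = 0.714 and permutation adjusted p = 0.110 for each). In that set r dropped to 0.535 for Fech and 0.606 for Slc4a1 without the Nampt+ samples of rats 2 and 4, so these relations rest partly on them. Gata1 had r = 0.740 (permutation adjusted p = 0.0809) in the first set and r = 0.936 (permutation adjusted p = 0.00794) in the second.

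Neither Tmcc2 nor Slc25a37 passed in either set. Tmcc2 had r = 0.151 (permutation adjusted p = 0.794) and r = 0.302 (permutation adjusted p = 0.552), and Slc25a37 had r = -0.638 (permutation adjusted p = 0.156) and r = -0.026 (permutation adjusted p = 0.952). FPKM is scaled by the sum of all reads, haemoglobin included. Scaled to counts outside the haemoglobin genes, Slc25a37 had r = -0.328 and r = 0.468, and Tmcc2 r = 0.259 and r = 0.380. Over all 11 samples, which are not independent, r was 0.993 for Alas2, 0.942 for Klf1, 0.384 for Tmcc2 and -0.653 for Slc25a37, as a description.

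**Figure D3:**
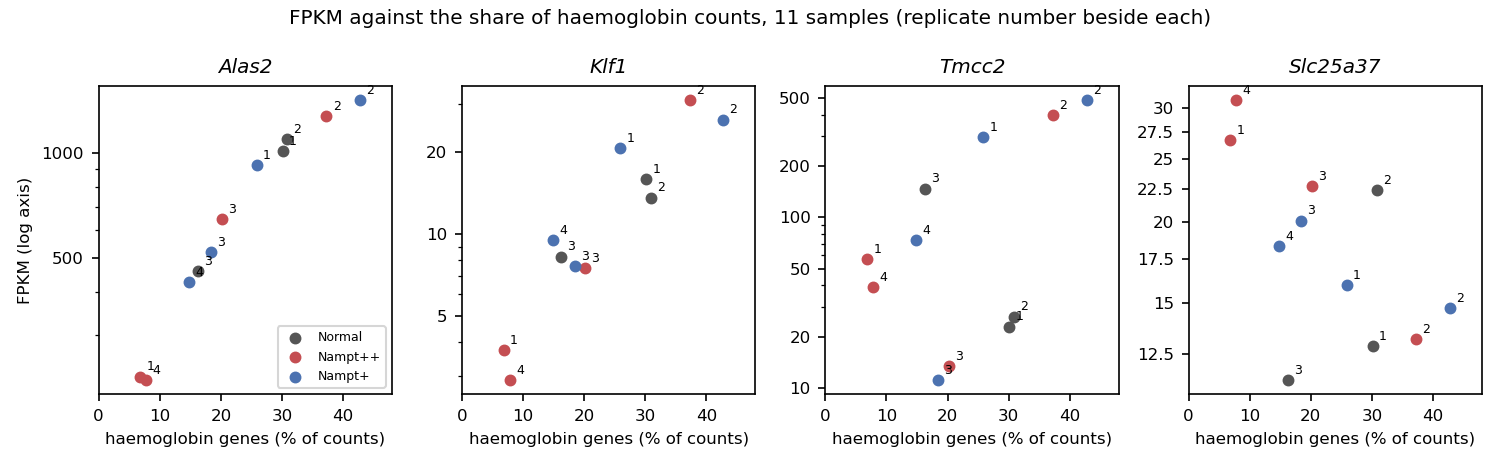
FPKM (log axis) of Alas2, Klf1, Tmcc2 and Slc25a37 against the percentage of counts on haemoglobin genes in the 11 samples, coloured by group and marked with the replicate number. Alas2 climbs with the haemoglobin share along a single line, Klf1 with more scatter, Tmcc2 falls on separate levels at like shares (23 to 26 FPKM in the first 2 controls and 294 in the Nampt+ sample of rat 1), and the highest Slc25a37 values belong to the lowest shares.

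Set against haemoglobin mRNA directly, Alas2 was nearly constant. Counts of Alas2 per 1000 haemoglobin counts were 6.13, 6.46 and 5.17 in the controls, 6.09, 6.20, 5.86 and 5.27 in the Nampt++ samples and 6.53, 6.01, 5.19 and 5.29 in the Nampt+ samples, a 1.26-fold range over the 11 samples beside a 6.38-fold range in FPKM. Its SD was 8.85% of the mean over all samples. Group means of Alas2 were 5.92 ± 0.671 (SD, n = 3), 5.85 ± 0.414 (SD, n = 4) and 5.76 ± 0.634 (SD, n = 4), and the log2 difference between Nampt+ and Nampt++ samples was -0.03 (two-sided exact permutation p = 0.8, adjusted p = 0.971 over 30 tests).

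The other genes varied more on this scale. Their SD was 24.6% of the mean for Bpgm, 25.1% for Epb42, 28.4% for Klf1, 30.2% for Fech, 38.8% for Gata1, 42.1% for Ahsp, 46.1% for Slc4a1, 78.5% for Tmcc2 and 101% for Slc25a37. Rat 3 had the lowest values of Ahsp, Epb42, Bpgm, Tmcc2, Gata1 and Klf1 among the CIA samples, at 1 or other of its 2 statuses. None of the 30 differences between groups passed, the permutation adjusted p being 0.971 for each. Within rats Epb42 per 1000 haemoglobin counts was lower at Nampt+ status in 4 of 4 rats, by little (mean log2 difference -0.09 ± 0.03, SD, n = 4; exact sign-flip permutation p = 0.125, the smallest 4 rats allow), and so was Slc25a37 (-1.10 ± 1.3, SD, n = 4; exact sign-flip permutation p = 0.125). For Slc25a37 the log2 differences were -2.66, -0.04, -0.04 and -1.68 in rats 1, 2, 3 and 4. On FPKM they were -0.74, 0.16, -0.18 and -0.75. In rats 1 and 4 the haemoglobin share, the denominator here, rose from 6.84% to 25.9% and from 7.80% to 14.8%.

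Tmcc2 differed between rats much more than between the statuses of 1 rat. Its counts per 1000 haemoglobin counts were 3.18 and 4.35 in rat 1 at Nampt++ and Nampt+ status, 4.06 and 4.32 in rat 2, 0.256 and 0.233 in rat 3, and 1.93 and 1.92 in rat 4. The controls had 0.291, 0.324 and 3.49. The 11 samples spanned 18.7-fold, while the largest change within a rat was 0.45 on the log2 scale, in rat 1. Values of 0.233 to 0.324 were found in 2 controls and 1 CIA rat, and values of 1.92 to 4.35 in 1 control and 3 CIA rats, with no sample in between. Tmcc2 had at least 3371 counts in each sample. The log2 difference between groups was 0.10 for Nampt+ against Nampt++ samples (two-sided exact permutation adjusted p = 0.971). The sum of platelet and megakaryocyte markers varied with Tmcc2 more than with the other 9 genes (r = 0.648 between the log2 sum of the 9 markers and Tmcc2 over the 11 samples, as a description). That sum rests mostly on Pf4 (6032 FPKM on average), and the part of these cells in the level of Tmcc2 was not tested. For the other marker lists r with Tmcc2 ran from -0.596 (basophils and mast cells) to 0.212 (B cells). It was -0.494 even for the nearly absent retina markers.

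**Figure D4:**
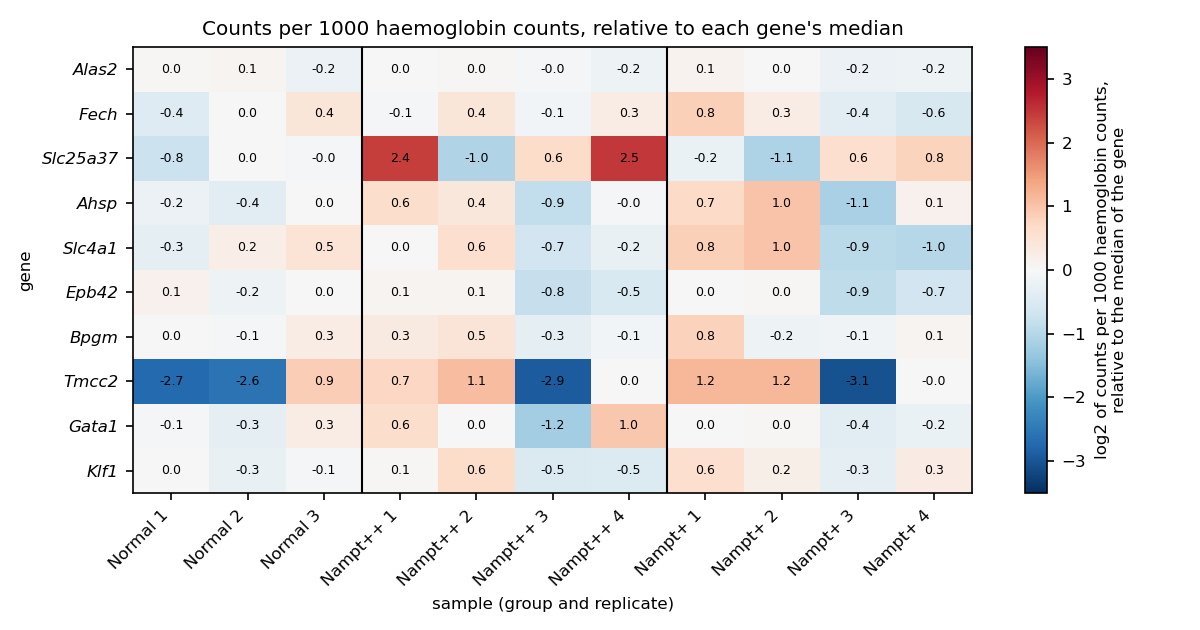
Counts of each gene per 1000 haemoglobin counts in each sample, as the log2 ratio to the median of the gene over the 11 samples (red above, blue below; black lines part the 3 groups). The row of Alas2 stays between -0.22 and 0.12, Tmcc2 lies at -2.6 to -3.1 in the first 2 controls and in both samples of rat 3, and Slc25a37 lies at 2.4 and 2.5 in the Nampt++ samples of rats 1 and 4.

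On FPKM, Slc25a37 moved apart from the other erythroid genes. Over the 11 samples, as a description of samples that share rats, Pearson's r of log2(FPKM + 1) ran from 0.785 to 0.981 (median 0.917) in the 28 pairs of the 8 genes other than Slc25a37 and Tmcc2, from 0.365 to 0.769 between Tmcc2 and those 8, and from -0.740 to -0.525 between Slc25a37 and the other 9. A negative r of this size was common on this scale. Among 4915 genes outside the 10, averaging 10 FPKM or more, the median r with the mean standardised level of the 10 was -0.563. Over the 11 samples r of Slc25a37 with haemoglobin was -0.653 on FPKM. Scaled to counts outside the haemoglobin genes it was -0.244, and the pairs were not compared on that scale. The sums of monocyte markers (r = 0.777 over 6 genes), neutrophil markers (r = 0.651 over 8 genes) and eosinophil markers (r = 0.647 over 5 genes) varied with Slc25a37, and their part in its level was not tested. Scaled to counts outside the haemoglobin genes, Slc25a37 had a 2.47-fold range, the narrowest of the 10 genes on that scale, where Alas2 spanned 10.1-fold and Tmcc2 61.4-fold.

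Outside the 10 genes, 56 of the 4915 genes that averaged 10 FPKM or more (1.14%) had r over 0.8 with the mean standardised level of the 10 over the 11 samples. The 10 most alike were Ubac1 (r = 0.984), Rhd (0.982), Rnf10 (0.977), Prdx2 (0.975), Gclm (0.975), Tmem86b (0.974), Isca1 (0.969), Aqp1 (0.969), Bnip3l (0.968) and Bsdc1 (0.965). Rhd encodes the RhD blood group antigen, Aqp1 the red cell water channel, Prdx2 an abundant peroxidase of red cells and Bnip3l the receptor that clears mitochondria from reticulocytes. Rhd ranged from 8.50 to 111 FPKM and Prdx2 from 230 to 811 FPKM. Of the fixed pathway lists, r exceeded 0.8 for 5 of 8 antioxidant and enzyme genes at that level of expression, 4 of 8 membrane and skeleton genes, 2 of 5 haem synthesis and transport genes, 2 of 9 reticulocyte maturation genes, 0 of 7 transcription factors and 0 of 3 iron genes.

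No gene of these pathway lists was called in any of the 3 comparisons. In Nampt+ against Nampt++ samples the log2 fold change was above 0 for 10 of 13 haem synthesis and transport genes tested (median 0.16), 11 of 14 membrane and skeleton genes (0.70), 12 of 13 reticulocyte maturation genes (0.40), 7 of 9 antioxidant and enzyme genes (0.57), 6 of 10 transcription factors (0.08) and 4 of 7 iron genes (0.04), beside 50% of all genes tested. Of the genes above 0, Abcb10 (0.94), Slc25a38 (0.97), Rhag (0.89), Mxi1 (0.98), Gfi1b (0.85) and Epor (0.99) had a ratio of mean FPKM below 1. Against controls the Nampt++ samples had 8 of 9 antioxidant and enzyme genes and 8 of 13 haem synthesis genes below 0, and for the other lists the count below 0 was 6 of 13 membrane, 6 of 13 maturation, 5 of 10 transcription factor and 3 of 7 iron genes. In Nampt+ samples against controls 13 of 13 maturation genes, 12 of 14 membrane genes, 10 of 13 haem synthesis genes, 8 of 9 antioxidant and enzyme genes, 6 of 10 transcription factors and 3 of 7 iron genes were above 0. By the ratio of mean FPKM some of these genes were lower in Nampt+ samples than in controls. They were Tmod1 (0.89), Stom (0.97), Add1 (0.98) and Add2 (0.99) among membrane genes, and Fbxo7 (0.99) and Ube2l6 (0.92) among maturation genes. Hagh (0.94), Car2 (0.98) and Nt5c3a (0.99) of the antioxidant list and Slc25a38 (0.94) of the haem list were lower too. The genes of a list are measured in the same samples and are not independent of each other. The 2 most abundant genes of each list were often ones that leukocytes express too, among them Fth1, ferritin heavy chain (7836 FPKM on average), Ftl1 (264), Gpx1 (926), Stom (232), Add1 (81.8), Ldb1 (132), Nfe2 (92.3) and Alas1, the ubiquitous counterpart of Alas2 (90.2). Alas1 had log2 fold changes of -0.09, 0.72 and 0.62 in Nampt+ against Nampt++, Nampt++ against controls and Nampt+ against controls, where Alas2 had 0.71, -0.55 and 0.16. The red cell genes Prdx2 (459 FPKM) and Bnip3l (97.1 FPKM) had 0.61 and 0.60 in Nampt+ against Nampt++ samples. Also among the most abundant, Tmem14c, a mitochondrial carrier of the haem precursor protoporphyrinogen (58.4 FPKM), had a log2 fold change of -0.30 ± 0.13 (SE; edgeR unadjusted p = 0.0425, adjusted p = 1.00) in that comparison, with a ratio of means of 0.78 that kept it from being called. Mxi1, a MYC antagonist (62.3 FPKM), had 0.15 ± 0.37 (SE).

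Markers of other blood cells moved with the groups in few cases. Among 9 platelet and megakaryocyte markers only Ppbp was called, lower in Nampt++ samples than in controls (log2 fold change -1.09 ± 0.40, SE; edgeR adjusted p = 1.00). Of the basophil and mast cell markers, Ms4a2 (1.94 ± 0.61, SE), Mcpt8l3 (1.41 ± 0.50) and Mcpt8l2 (1.31 ± 0.48) were called higher in Nampt+ than in Nampt++ samples, and Mcpt8l2 was called lower in Nampt++ samples than in controls (-1.20 ± 0.50), with edgeR adjusted p = 1.00 for each. Their summed FPKM ranged from 27.1 to 74.7 in controls, 16.5 to 55.0 in Nampt++ and 17.2 to 188 in Nampt+ samples, and that of the platelet list from 3546 to 6790, 4832 to 9728 and 1747 to 15779. No neutrophil, eosinophil, monocyte, T cell, B cell or NK cell marker was called in any comparison. Summed neutrophil markers ranged from 2073 to 13944 FPKM in controls, 2881 to 40185 in Nampt++ and 3663 to 15443 in Nampt+ samples, and monocyte markers from 4191 to 10513, 5681 to 12688 and 5405 to 13718, the defining genes S100a9 and Lyz2 being above 0 in every sample. The part of these cells in the levels of Gata1 and Slc25a37 was not tested.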

How the data were processed

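Poly(A) RNA of WBCs was sequenced by the authors, who trimmed reads with cutadapt 1.9, aligned them with HISAT2 2.0.4 and assembled them with StringTie 1.3.4, per the labels; the genome build is not given in the sources used here. The authors deposited, for each gene and sample, read counts, which are not normalised, and FPKM, which they scaled by gene length and by the sample's total. Groups follow the sample titles, and no column was left unused for want of a sample.

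Counts were tested with edgeR 4.0.16 (TMM, quasi-likelihood) in R 4.3.3, a pair of groups at a time, in genes averaging 1 FPKM or more, with Benjamini-Hochberg adjustment over all of them. For a call, the means in FPKM had to differ by a ratio above 2 or below 0.5, with unadjusted p below 0.05. Single values were compared by two-sided exact permutation over samples of log2(FPKM + 1), or of log2 counts per 1000 haemoglobin counts, with Python 3.11.15 and numpy 2.4.6. Scripts were tested on simulated data. The genes, lists, motifs and tests were chosen with earlier results of these data known. All 10 genes are named, with list genes that were called, the 2 most abundant of a pathway list and the 10 genes most like them (r with their mean standardised level, among genes averaging 10 FPKM or more). Depth was 65340027 to 85819418 counts a sample. Replicates within a group differed by far more than counting noise (lowest chi-square per degree of freedom 287). Nampt++ and Nampt+ samples of 1 number come from 1 rat, and the rat was a block in an alternative. Other alternatives were limma 3.58.1, DESeq2 1.42.0, other scalings and filters, and leaving out each sample.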

Additional observations from a re-analysis of the deposited data

Results flagged for a closer look

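Within the Nampt++ group the sample of rat 2 stood apart from the other 3 for 4 of the 10 genes, the gap to the nearest sample exceeding the Dixon limit of 0.829 of the group's range. Tmcc2 had 399 FPKM there, with 56.9 FPKM in the nearest sample. Ahsp had 277 FPKM, with 62.0 FPKM in the nearest. Slc4a1 had 102 FPKM, with 22.8 FPKM in the nearest, and Klf1 had 31.1 FPKM, with 7.49 FPKM in the nearest. In all 42 groups of values were looked at, of which chance would give about 2.1, so the 4 found in 1 sample, which are correlated with each other, are not 4 separate events. The haemoglobin share of this sample was 37.3%, against 6.84% to 20.2% in the other 3 Nampt++ samples, and its part in the 4 values was not tested.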

How the results depend on the processing

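With 1 sample left out at a time, the number of the 10 genes called ran from 0 to 5 in Nampt+ against Nampt++, 0 to 7 in Nampt++ against controls and 0 to 1 in Nampt+ against controls. The sign of the log2 fold change also depended on single samples. In Nampt+ against Nampt++ the values ran as Tmcc2 -0.25 to 3.17, Alas2 -0.17 to 1.54, Klf1 -0.11 to 2.13, Epb42 -0.34 to 1.93, Fech -0.10 to 1.80, Ahsp -0.064 to 2.51, Slc4a1 -0.21 to 2.65, Gata1 -0.25 to 1.57, each being below 0 without the Nampt+ sample of rat 2. In Nampt++ against controls they ran as Tmcc2 -0.79 to 2.30, Klf1 -1.55 to 0.22, Bpgm -1.43 to 0.017, Fech -1.24 to 0.23, Ahsp -1.35 to 0.15, Slc4a1 -1.84 to 0.073. In Nampt+ against controls they ran as Alas2 -0.74 to 0.59, Klf1 -0.24 to 0.86, Bpgm -0.25 to 0.59, Epb42 -0.99 to 0.42, Slc25a37 -0.19 to 0.74, Fech -0.31 to 0.98, Ahsp -0.23 to 1.51, Slc4a1 -0.63 to 1.29, Gata1 -0.69 to 0.57. The difference in log2 counts per 1000 haemoglobin counts changed sign for 8, 5 and 5 of the 10 genes in the 3 comparisons in that order, among them Alas2 (-0.091 to 0.020, -0.11 to 0.054, -0.14 to 0.026), Fech (-0.35 to 0.11, -0.074 to 0.36, -0.21 to 0.27) and, in Nampt+ against Nampt++, Tmcc2 (-0.78 to 1.05). The difference in haemoglobin share ran from 1.69 to 13.9, -14.1 to -4.0 and -6.04 to 3.27 percentage points.

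With all samples kept, 0 of the 10 genes were called by edgeR under upper-quartile scaling, with haemoglobin genes left out, with no filter, with all groups in one fit, by DESeq2 and by limma; with a filter of mean FPKM at least 10, Gata1 and Epb42 were not tested and 0 of the other 8 were called. limma on log2(FPKM + 1) turned the sign in Nampt+ against controls for Alas2 (-0.12), Epb42 (-0.36), Fech (-0.0089), Slc4a1 (-0.22) and Gata1 (-0.11), and r of Slc25a37 with haemoglobin in controls and Nampt+ samples was 0.47 on counts scaled to those outside the haemoglobin genes, an alternative chosen after seeing the data; the cause was not tested. Over the alternatives the lowest edgeR, limma or DESeq2 adjusted p of any of the 10 genes was 0.344 in Nampt+ against Nampt++, 0.546 in Nampt++ against controls and 0.988 in Nampt+ against controls. With the rat as a replicate block in Nampt+ against Nampt++, edgeR called 0 of the 10 (56 genes in all, 72 without the block). Deviations from the group means of the 2 samples of a rat correlated at -0.27, -0.24, 0.23 and 0.09 over 11242 genes. Without rat 2 at both statuses (332 genes in all) and by limma with the block (114), both chosen after seeing the data, 0 of the 10 were called. Over all genes tested, the 72, 77 and 56 called in the 3 comparisons became 295, 306 and 261 with no filter, 19, 25 and 14 with mean FPKM at least 10, and 104, 121 and 73 by DESeq2, and ran from 58 to 165, 53 to 462 and 49 to 136 with 1 sample left out. By exact permutation of log2(FPKM + 1), Slc25a37 was lower in Nampt+ than in Nampt++ samples without the Nampt++ sample of rat 2 (-0.60 on that scale, p = 0.0286, the smallest possible), the 1 call that leaving out a sample gave by this test. Such a call was possible only in the 8 tests of Nampt+ against Nampt++ samples: against controls, exact permutation with 1 sample left out cannot give a p under 0.1 (3 against 3) or 0.0667 (4 against 2).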
